A study of Mus musculus with 6 samples.

Results

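The mouse butyrophilin and butyrophilin-like genes Btnl1, Btnl4, Btnl6, Btnl2, Btn1a1, Btn2a2 and Btnl9, 7 in all, were taken from the 56362 features of the count tables by gene name, and each name matched 1 feature. They were proposed with results of this same comparison known, so their values between the genotypes are given as a description, without a test. Butyrophilins and butyrophilin-like proteins are cell surface proteins of the immunoglobulin superfamily, relatives of the B7 costimulatory ligands, and several carry a B30.2 domain inside the cell. In the mouse gut, epithelial cells display Btnl1 in pairs with Btnl6 or Btnl4, and these pairs are known to select and maintain the γδ T cells that live among the enterocytes, above all those of the Vγ7 type in small intestine. The remaining members have other known roles: Btn1a1 coats milk fat globules in lactating mammary gland, Btn2a2 and Btnl2 restrain T cells, and Btnl9 is a less studied relative.

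RNA was sequenced from intestine of BALB/c mice, with 1 library from each of 3 wild type and 3 knockout animals; the knockouts have no FcεRIα, the chain of the high-affinity IgE receptor that binds IgE. The series title speaks of gut epithelial cells, while the tissue is labelled intestine. Every title carries the letters DSS, which the labels leave unexplained and which both groups share. The labels name no age, no sex and no method of making the knockout. The comparison asks how loss of that receptor chain alters gene expression in the gut.

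Library totals ran from 19031833 to 23092382 counts, and 3 counts, the most that a count of 0 leaves possible by counting error alone, correspond to 0.124 to 0.187 CPM depending on the library (CPM, the count scaled to the TMM-adjusted library total). Fcer1a, the targeted gene, had 0, 10 and 18 counts in wild type libraries 1, 2 and 3 and 1, 0 and 0 counts in the knockout libraries, so that this gene could not check the label of wild type library 1. Wild type library 1 stood apart in other ways too. The mitochondrial gene mt-Co1 took 6.83% of its counts against 1.45% to 2.28% in the other 5 libraries, and the summed level of 15 epithelial markers was 37018 CPM there, against 17795 and 16605 CPM in the other wild type libraries and 26421 to 31282 CPM in knockout libraries. Values without this library are given beside the members' results. Its TMM factor was also the lowest, at 0.824 against 0.963 to 1.16, so that it stands higher against the other libraries in CPM than in TPM, and whether groups overlap is stated for both scales where they differ. In bulk tissue, fewer cells of a type and less RNA per cell cannot be told apart.

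Most markers of colonic epithelium were abundant, and most of those of small intestine were not. Summed over 14 markers of colonic epithelium, the level was 1787 to 7609 CPM in wild type and 3487 to 4292 CPM in knockout libraries, with the highest mean levels for carbonic anhydrase Car4, the chloride exchanger Slc26a3 and the water channel Aqp4. Of 14 markers of small intestinal enterocytes, Slc5a1 was highest at 52.0 to 162 CPM and Anpep next at 8.78 to 36.3 CPM. Fabp1, Sis, Lct and Treh, which define mature enterocytes of small intestine, lay between 0 and 0.0932 CPM in every library.

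Upstream of their transcription starts, the clustered gut members fell into a closely similar pair and unlike neighbours, and the windows of 4 of them are shown because these genes lie together on chromosome 17 and ran in parallel across the libraries. RefSeq (GRCm38.p6, the C57BL/6J reference, not the BALB/c strain of these mice) gave a window of 300 bases, from 250 before to 50 after the start, for 6 of the 7 members, Btn1a1 being the one without. In the Btnl4 window (chr17:34475888-34476187, minus strand) and the Btnl6 window (chr17:34517303-34517602, minus strand), capitals mark the bases that differ from, or find no partner in, the other of the pair. In the Btnl2 window (chr17:34354572-34354871, plus strand), capitals mark a match to the HNF4-type motif CAAAGTCCA. The Btnl1 window (chr17:34376882-34377181, plus strand) held no match to any motif searched and is in lower case throughout.
Btnl4: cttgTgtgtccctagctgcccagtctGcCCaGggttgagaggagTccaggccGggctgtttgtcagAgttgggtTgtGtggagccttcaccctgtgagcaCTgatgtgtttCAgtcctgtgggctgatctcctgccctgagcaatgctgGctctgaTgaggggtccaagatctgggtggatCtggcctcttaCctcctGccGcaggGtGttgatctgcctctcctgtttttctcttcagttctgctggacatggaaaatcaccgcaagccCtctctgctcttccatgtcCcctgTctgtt
Btnl6: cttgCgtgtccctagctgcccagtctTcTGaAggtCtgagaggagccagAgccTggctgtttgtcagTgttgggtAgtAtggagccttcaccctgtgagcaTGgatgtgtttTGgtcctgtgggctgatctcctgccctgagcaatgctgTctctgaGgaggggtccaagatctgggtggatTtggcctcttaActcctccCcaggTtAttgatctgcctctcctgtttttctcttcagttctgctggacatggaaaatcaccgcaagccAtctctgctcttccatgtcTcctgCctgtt
Btnl2: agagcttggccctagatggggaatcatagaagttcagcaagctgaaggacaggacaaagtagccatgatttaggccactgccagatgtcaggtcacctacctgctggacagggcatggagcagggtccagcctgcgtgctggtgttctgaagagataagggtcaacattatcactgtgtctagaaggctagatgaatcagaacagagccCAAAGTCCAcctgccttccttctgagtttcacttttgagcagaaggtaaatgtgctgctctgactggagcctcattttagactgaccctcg
Btnl1: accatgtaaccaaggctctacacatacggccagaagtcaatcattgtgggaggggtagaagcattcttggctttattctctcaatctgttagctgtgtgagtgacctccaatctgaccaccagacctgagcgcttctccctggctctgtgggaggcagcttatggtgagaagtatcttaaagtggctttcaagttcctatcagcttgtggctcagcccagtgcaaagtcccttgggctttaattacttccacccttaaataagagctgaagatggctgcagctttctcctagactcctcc

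The Btnl4 and Btnl6 windows were identical at 275 of 302 aligned positions, or 91.1%, whereas every other pair among the 6 windows lay between 46.9% and 53.4%. RefSeq places the Btnl4 start 1381 bases inside the gene as GENCODE vM21 draws it, while the starts of Btnl1, Btnl2 and Btnl6 coincide in both. Motifs were searched on both strands. CAAAGTCCA (HNF4-type) stood in 0.475% of all 32851 windows and among the members in Btnl2 alone, 41 bases before the start. GAAANNGAA (interferon-type) stood in 8.56% of windows and among the members only in Btn2a2. TTTATNG (CDX-type, in 10.9% of windows) and TTCNNNGAA (STAT-type, in 8.30%) were in no member's window.

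By position, 4 members form 1 cluster at the edge of the MHC class II region of chromosome 17 (GRCm38, GENCODE vM21). Btnl2 lies at 34354822 to 34369495 and Btnl1 at 34377132 to 34386028, both on the plus strand. Btnl4, at 34466562 to 34477318, and Btnl6, at 34507804 to 34517352, are on the minus strand, with the pseudogene Btnl5-ps between them and Btnl7-ps beyond. Btn1a1 (23456992 to 23465901) and Btn2a2 (23477676 to 23488857) are neighbours on chromosome 13, and Btnl9 (49165585 to 49187159) is on chromosome 11. No annotated gene overlaps any of the 7.

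Per transcript length, Btnl4 was the most abundant member, followed by Btnl6, Btnl1 and Btnl2. In TPM (counts divided by the deposited gene length and rescaled to the same sum in every library), Btnl4 stood at 109.8 ± 11.9 TPM in wild type against 245 ± 50.1 TPM in knockout gut. The values were 57.1 ± 19.9 TPM in wild type against 126 ± 29.8 TPM in knockout gut for Btnl6, 12.3 ± 9.23 TPM in wild type against 36.8 ± 10.5 TPM in knockout gut for Btnl1 and 4.98 ± 2.30 TPM in wild type against 11.6 ± 5.87 TPM in knockout gut for Btnl2 (all SD, n = 3). This order held in 6 of 6 libraries at each step. Far below lay Btn1a1, at 0.221 ± 0.235 TPM in wild type against 1.95 ± 0.292 TPM in knockout gut, and Btnl9, at 1.01 ± 0.706 TPM in wild type against 0.324 ± 0.204 TPM in knockout gut. Between these last genes the order depended on genotype, with Btnl9 the higher in 3 of 3 wild type libraries and Btn1a1 the higher in 3 of 3 knockout libraries.

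No gene of the series passed edgeR's test. Of 16732 genes tested with edgeR's quasi-likelihood method, 0 (0%) had an adjusted p under 0.05, the smallest being 0.136, and 1145 (6.84%) had an unadjusted p under 0.05. DESeq2 called 84 genes and limma-voom 2. Of the 7 members, 6 were tested. Btn1a1 passed the filter on low counts with 3 knockout libraries and 1 wild type library, Btnl9 with 3 wild type libraries and 1 knockout library, and the 4 clustered genes with all 6. Among the 6, 5 had higher estimates in knockout gut, where 44.2% of all tested genes did, and the median log2 fold change was 1.11 against -0.05 over all genes. In 2 of them (Btnl4 and Btn1a1) every knockout value exceeded every wild type value, as in 8.73% of all tested genes, and in 1 (Btnl9) all lay below, as in 4.27%. These counts are in CPM. In TPM, 4 of the 6 (Btnl4, Btnl6, Btnl1 and Btn1a1) lay wholly above, as did 8.56% of all tested genes, and 0 wholly below, as did 2.80%. Since the genes were proposed with this comparison known, these shares carry no weight as evidence.

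**Figure D1:**
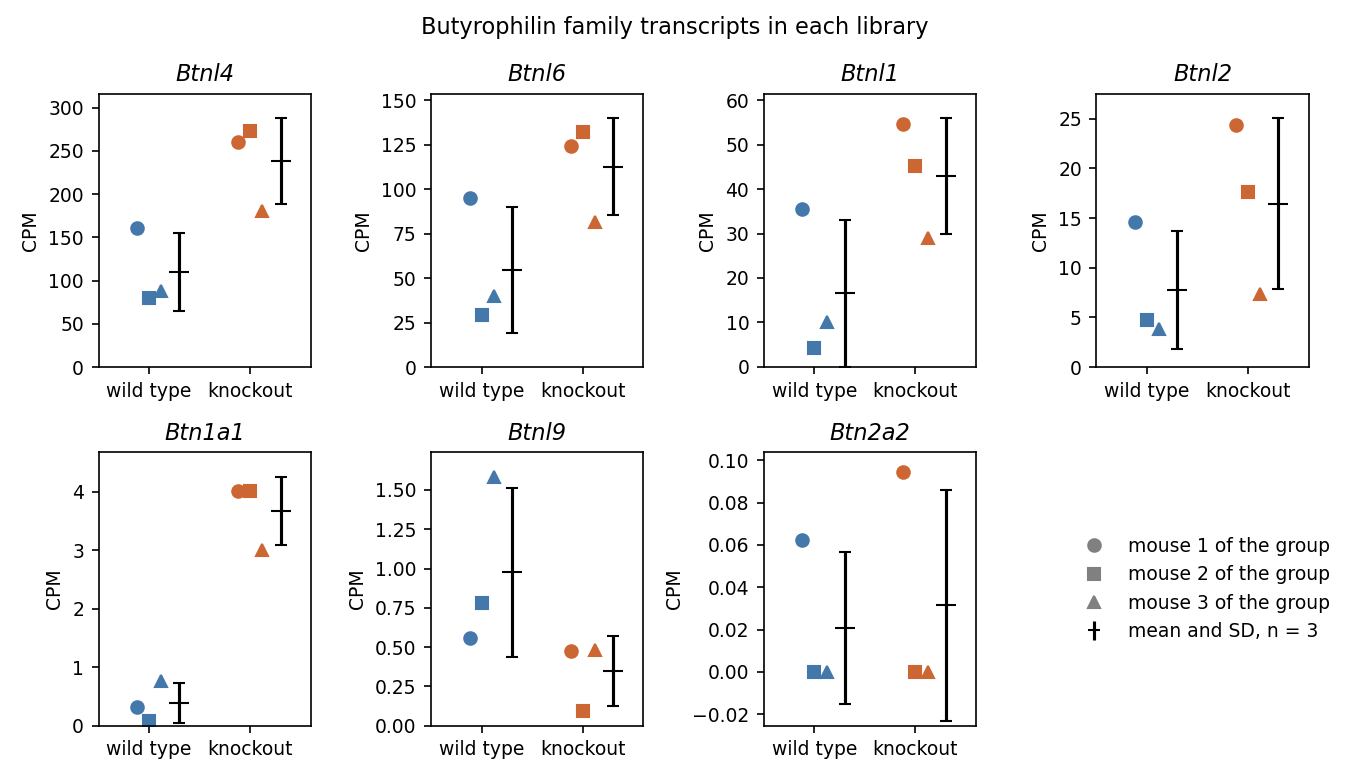
Level of each member (y axis, CPM, linear) in the 3 wild type and 3 knockout libraries, with symbols for the mice and bars for the mean and SD. Wild type library 1 is the highest wild type library for Btnl4, Btnl6, Btnl1 and Btnl2, and in these CPM values the groups part for Btnl4, Btn1a1 and Btnl9; in TPM they part for Btnl4, Btnl6, Btnl1 and Btn1a1 and overlap for Btnl9.

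Btnl4, a partner of Btnl1 at the enterocyte surface, was higher in every knockout library than in any wild type library. Btnl4 measured 161, 79.7 and 87.5 CPM in wild type libraries 1, 2 and 3, against 259.9, 273 and 181 CPM in the knockouts. The log2 fold change by edgeR was 1.12 (SE 0.32), and 1.47 without wild type library 1. Knockout library 3, the lowest of its group, lay only a little above wild type library 1.

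Btnl6, the other partner, had groups that overlapped in CPM and not in TPM. For Btnl6, wild type libraries gave 95.2, 29.1 and 39.7 CPM, in the order of their numbers, and knockout libraries 124, 132 and 81.7 CPM. The log2 fold change was 1.04 (SE 0.46), or 1.67 without wild type library 1. Wild type library 1 lay above knockout library 3, while the other 2 wild type libraries lay below every knockout library. In TPM wild type library 1 was at 78.5 TPM, below the 92.8 TPM of knockout library 3.

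Btnl1 is common to both pairs. The wild type mice had 35.4, 4.13 and 10.04 CPM of Btnl1 in libraries 1, 2 and 3, and the knockouts 54.7, 45.2 and 29.1 CPM. The log2 fold change was 1.38 (SE 0.74). Without wild type library 1 the value was 2.56. In CPM wild type library 1 again stood above knockout library 3, and the other wild type libraries below it. In TPM the values of these libraries were 22.4 TPM and 25.3 TPM, and the groups did not overlap. In TPM, the ratio of Btnl1 to Btnl6 was 0.285, 0.109 and 0.194 in wild type mice and 0.338, 0.262 and 0.273 in knockouts, so these ratios overlapped between the groups.

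Btnl2 is known to limit T cell activation. Btnl2 measured 14.6, 4.79 and 3.85 CPM in wild type libraries 1, 2 and 3, against 24.4, 17.6 and 7.32 CPM in the knockouts. The log2 fold change was 1.09 (SE 0.64), and 1.90 without wild type library 1. Knockout library 3 was the lowest of its group for this gene as for the other clustered members, and it lay below wild type library 1. Without knockout library 1 the log2 fold change was 0.63.

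Reads of the clustered genes can be assigned to more than 1 of them. Of the 50-base words in the annotated transcripts of Btnl4, 14.0% also occur in another gene, most often Btnl5-ps, and for Btnl6 the share was 6.58%. Btnl1 and Btnl2 shared none, although Btnl1, like Btnl4 and Btnl6, had fractional counts in all 6 libraries. The pseudogene Btnl5-ps was itself measured. For Btnl5-ps, wild type libraries gave 132, 24.5 and 32.7 CPM, in the order of their numbers, and knockout libraries 126, 134 and 75.7 CPM. For Btnl7-ps, wild type libraries 1, 2 and 3 had 14.1, 5.94 and 6.20 CPM, and knockout libraries 1, 2 and 3 had 21.9, 20.9 and 13.7 CPM. Neither passed edgeR's test (log2 fold change 0.83, SE 0.65, adjusted p = 0.829, and 1.11, SE 0.41, adjusted p = 0.709). Without wild type library 1 the values were 1.93 and 1.59 (edgeR adjusted p = 0.0611 for both), and without wild type library 2 Btnl5-ps was at 0.44. Btnl4, Btnl6 and both pseudogenes were also summed, a quantity that does not depend on how reads were divided among these 4. Btnl4 shared words with 5 other genes, so reads shared with genes outside the sum could still affect it. In the sum, wild type libraries had 403, 139 and 166 CPM and knockout libraries 532, 560 and 352 CPM. The ratio of group means was 2.04, and 3.15 without wild type library 1. In this sum of CPM wild type library 1 lay above knockout library 3. With the same genes summed in TPM, wild type library 1 lay below knockout library 3 and the groups did not overlap. By gene, these libraries had 122 and 189 TPM for Btnl4, 78.5 and 92.8 TPM for Btnl6, 101 and 79.5 TPM for Btnl5-ps, and 10.7 and 14.3 TPM for Btnl7-ps.

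**Figure D2:**
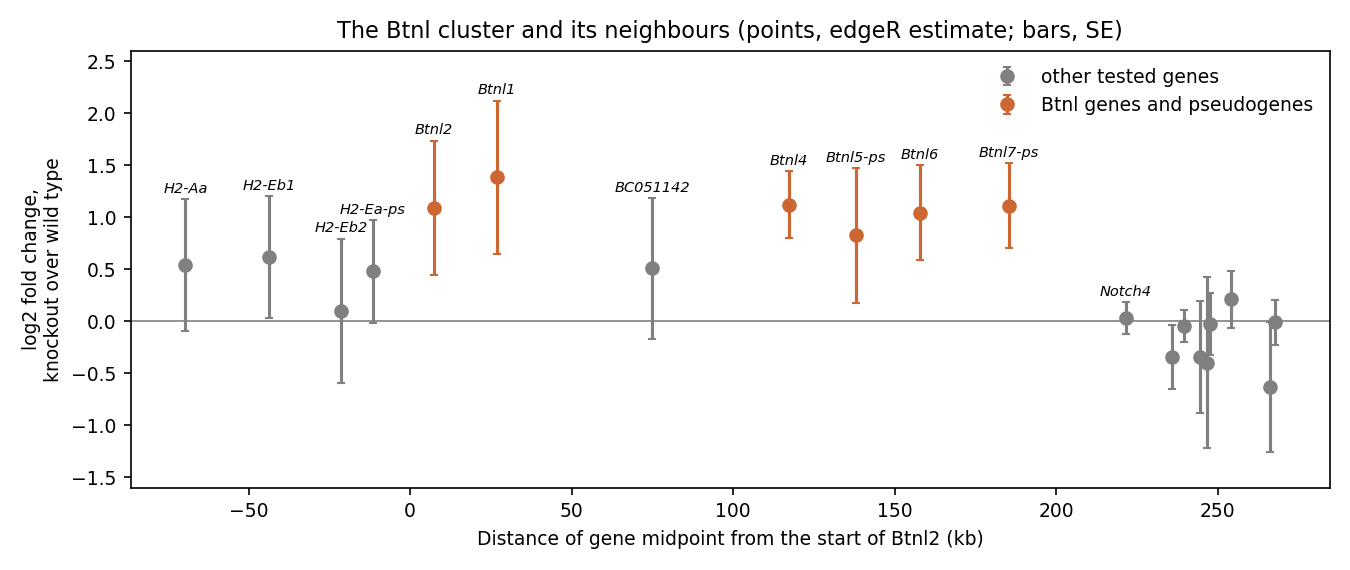
log2 fold change (y axis, points, with SE as bars) of every tested gene around the cluster against the distance of its midpoint from the start of Btnl2 (x axis, kb). The 6 Btnl genes and pseudogenes lie between 0.83 and 1.38, and Notch4, the next gene beyond, lies at 0.03.

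The neighbouring genes are given as estimates, without a test of their contrast with the members. H2-Eb2, the protein-coding gene next to Btnl2 and part of the class II region, differed by a log2 fold change of 0.10 (SE 0.69), and BC051142, between Btnl1 and Btnl4, by 0.51 (SE 0.68). The other class II genes on the Btnl2 side, H2-Ea-ps (nearest to Btnl2), H2-Eb1 and H2-Aa, differed by 0.48 (SE 0.50), 0.62 (SE 0.59) and 0.54 (SE 0.64). Notch4, a receptor of endothelium and the next protein-coding gene beyond Btnl6, differed by 0.03 (SE 0.15). For H2-Eb2, BC051142 and Notch4, edgeR's adjusted p was above the threshold of 0.05, at 0.978, 0.879 and 0.973. On chromosome 13, Abt1, the nearest protein-coding gene on the other side of Btn1a1, differed by -0.15 (SE 0.21), and Hist1h4h, a histone gene beyond Btn2a2, by -1.05 (SE 0.39), with adjusted p of 0.887 and 0.711 by edgeR. Beside Btnl9, Zfp62 differed by -0.21 (SE 0.18, edgeR adjusted p = 0.834), and the olfactory receptor gene Olfr1394 had 0 counts in every library.

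Btn1a1, the milk fat globule butyrophilin, had the largest log2 fold change of the 6 members tested, at a low level. Its counts were 5, 2 and 17 in wild type mice and 85, 86 and 69 in knockouts. The wild type mice had 0.311, 0.0825 and 0.769 CPM of Btn1a1 in libraries 1, 2 and 3, and the knockouts 4.02, 4.01 and 3.01 CPM. From 24 and 240 counts in all, the knockout to wild type ratio was 9.52, and its 95% exact binomial interval was 6.24 to 15.1, for counting error only. The log2 fold change was 3.23 (SE 0.73). Leaving out 1 library at a time gave 2.73 to 4.26, the highest without wild type library 3, with 3.06 without wild type library 1. Here wild type library 1 lay with its group.

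The partners of Btn1a1 in milk secretion were looked at beside it. Casein Csn2, Csn3, Lalba and Wap, which define lactating mammary epithelium, lay between 0 and 0.0871 CPM in every library. Xdh, the xanthine oxidoreductase that binds the inner domain of Btn1a1 on milk fat globules and is also made in gut epithelium, was abundant. Xdh measured 373, 162 and 143 CPM in wild type libraries 1, 2 and 3, against 519.7, 568 and 339 CPM in the knockouts. Its log2 fold change was 1.07 (SE 0.42, edgeR adjusted p = 0.713), with wild type library 1 above knockout library 3 in CPM. In TPM these libraries were at 108 TPM and 135 TPM, and the groups did not overlap. The lipid droplet protein gene Plin2 and the globule glycoprotein gene Mfge8 differed by 0.12 (SE 0.31, edgeR adjusted p = 0.941) and -0.19 (SE 0.33, adjusted p = 0.910), and both changed sign when 1 library was left out.

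Btn2a2, a butyrophilin of antigen-presenting and thymic epithelial cells, was at the limit of detection. Its counts were 1, 0 and 0 in wild type mice and 2, 0 and 0 in knockouts, so no fold can be given.

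Btnl9 was the one member with lower levels in knockout gut. Its counts were 9, 19 and 35 in wild type mice and 10, 2 and 11 in knockouts. For Btnl9, wild type libraries gave 0.561, 0.784 and 1.58 CPM, in the order of their numbers, and knockout libraries 0.472, 0.0932 and 0.479 CPM. From 63 and 23 counts in all, the ratio was 0.347, its 95% exact binomial interval 0.206 to 0.568, again for counting error only and not for the spread between mice. The log2 fold change was -1.48 (SE 0.71). In CPM the groups did not overlap, but in TPM they did, with wild type library 1 at 0.385 TPM, below knockout libraries 1 and 3 at 0.430 TPM and 0.453 TPM, and in raw counts too. Leaving out wild type library 1 gave -1.79, and wild type library 3 gave -0.94. All 15 endothelial markers had lower estimates in knockout gut (median log2 fold change -0.80). Their summed levels were 151 to 692 CPM in wild type and 125 to 405 CPM in knockout libraries. All 12 fibroblast and all 12 B cell genes had lower estimates too. Because the endothelial markers were lower in knockout gut, setting any gene against them raises its difference. Relative to the mean log2 level of the endothelial markers, Btnl9 differed by -0.64 with overlapping groups, against -1.33 before, and by -0.29 without wild type library 1. Across the 6 libraries, Btnl9 had a Pearson r of 0.28 with the endothelial, 0.19 with the fibroblast and 0.20 with the B cell marker mean. With the macrophage and dendritic mean r was -0.24, and with the epithelial mean -0.64. These values are a description over few points. Whether the level of any of these cell types has a part in the Btnl9 difference was not tested.

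Over the 6 libraries the log2 levels of Btnl1, Btnl4 and Btnl6 had pairwise r of 0.95 to 0.99, and each had an r of 0.87 to 0.92 with Btnl2. With Btnl9 the cluster members had r of -0.64 to -0.82. These values rest on libraries that share depth and tissue makeup, and for Btnl4 and Btnl6 on sequences that share reads. The genes most like Btnl4, the member of highest mean level, were Bfsp1, Pgap4, AU020206, Rnf114 and Psmf1, with r of 0.996 to 0.997 over the 6 libraries, and 464 of the tested genes had an r above 0.95 with it. For Btn1a1, looked up after its values were seen, the most alike were Coq9, Gfus, Aqp11, Muc20 and Ubac1 (r of 0.986 to 0.996), and 103 genes had an r above 0.95.

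Since the clustered members are made by epithelium, their levels were set against the mean log2 level of the 15 epithelial markers in the same library. Of these markers 14 had higher estimates in knockout gut (median log2 fold change 0.36), 0 passed edgeR's test, and their summed levels overlapped between the groups. Relative to the markers, the log2 values of Btnl4 were -3.24, -3.28 and -3.04 in wild type libraries against -2.33, -2.19 and -2.62 in knockouts, a difference of 0.81 between group means, against 1.17 before. On this scale wild type library 1 lay between the other 2 wild type libraries, and the groups did not overlap. Btnl6 had values of -4.00, -4.73 and -4.18 in wild type libraries against -3.40, -3.23 and -3.76 in knockouts, a difference of 0.84 against 1.20 before, and its groups parted. Btnl1, with -5.42, -7.52 and -6.15 in wild type libraries against -4.58, -4.78 and -5.25 in knockouts, parted likewise, with a difference of 1.495 against 1.86 before. Btnl2 still overlapped, with a difference of 0.81 against 1.17. Btn1a1 differed by 2.88 against 3.24 with the groups apart, and Btnl9 by -1.69 against -1.33 with overlapping groups. Without wild type library 1 these differences were 0.78 for Btnl4, 0.99 for Btnl6, 1.97 for Btnl1, 1.05 for Btnl2, 2.56 for Btn1a1 and -2.33 for Btnl9. On this scale, chosen after the data were seen, 4 of the 6 members lay wholly above in knockout gut, as did 1.98% of all tested genes, and 0 wholly below, as did 6.99%. The members were proposed with this contrast known, so nothing is read from these shares.

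**Figure D3:**
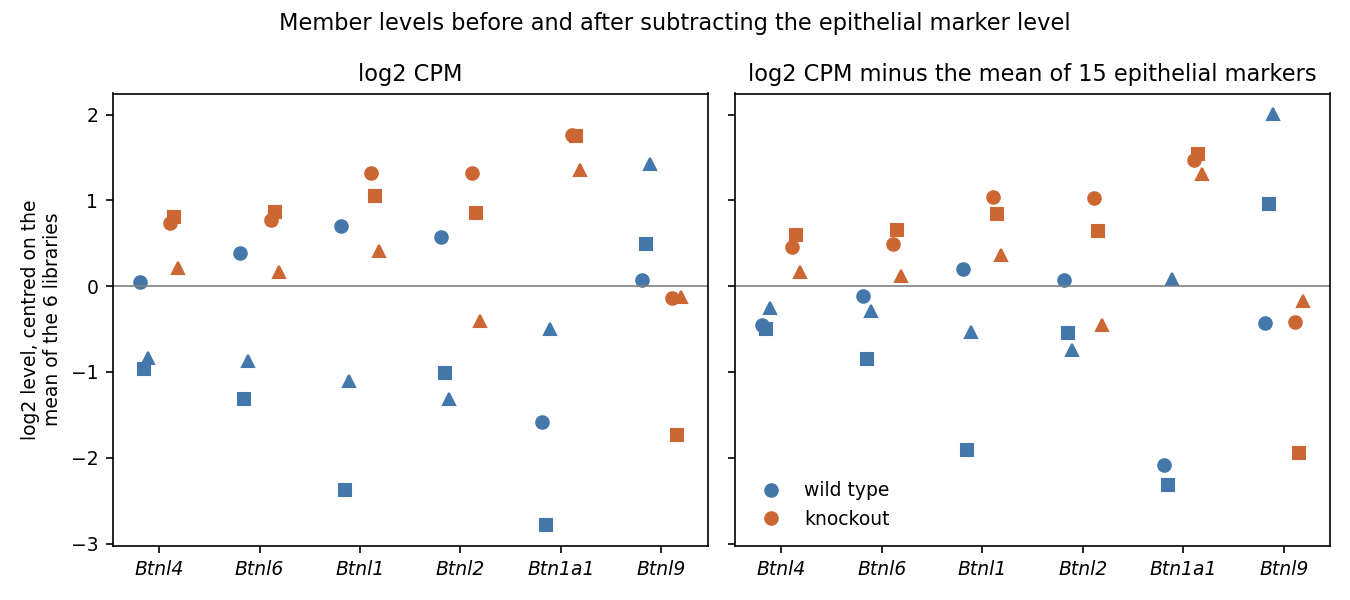
log2 level of the 6 members that were tested (y axis, centred on the mean of the 6 libraries), as CPM on the left and after subtracting the mean of 15 epithelial markers on the right, with blue for wild type and orange for knockout and symbols for the mice as in the plot of levels. After subtraction, Btnl4, Btnl6, Btnl1 and Btn1a1 are higher in every knockout library than in any wild type library, as are 1.98% of all tested genes on that scale.

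Other relatives were nearly silent. Of 21 names listed, 16 were in the tables, and Btnl5-ps and Btnl7-ps were the only tested ones. The Skint genes, butyrophilin relatives that select γδ T cells of the epidermis, had at most 3 counts each summed over the 6 libraries, and 8 of 11 had 0. Mog, a myelin glycoprotein, had 0 counts, and Btnl10 had 1 count in 1 library of each group. Ermap, a red cell protein, had counts of 1, 3 and 9 in wild type mice and 12, 6 and 7 in knockouts.

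Apart from Sox13, which other cells also make, transcripts of γδ T cells, the cells that Btnl pairs act on, were scarce. None of the tested genes separated the genotypes. Of 19 measured genes (receptor segments, constant regions and Sox13), 5 passed the filter, 3 with higher and 2 with lower estimates (median log2 fold change 0.03), and 0 passed edgeR's test. Trdc, the δ constant region, was low. The wild type mice had 0.747, 1.20 and 1.31 CPM of Trdc in libraries 1, 2 and 3, and the knockouts 0.378, 0.932 and 0.523 CPM (log2 fold change -0.83, SE 0.50, edgeR adjusted p = 0.790), with overlapping groups. The γ constant region Trgc4 differed by 0.71 (SE 0.59, edgeR adjusted p = 0.832). Sox13, a transcription factor of γδ and other cells, stood at 39.4 to 59.3 CPM and differed by 0.24 (SE 0.15, edgeR adjusted p = 0.799). Trgv7, the segment of the Vγ7 cells, had 1 count in knockout library 2 and 0 in the other 5 libraries, so a difference was not detectable at this depth.

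Among 27 tested genes of intraepithelial lymphocytes, 15 had higher and 12 lower estimates (median 0.12), 0 passed edgeR's test and 1 had an unadjusted p under 0.05. That gene was Xcl1, a chemokine that draws cross-presenting dendritic cells. Xcl1 measured 0.187, 0.248 and 0.498 CPM in wild type libraries 1, 2 and 3, against 0.945, 1.68 and 0.653 CPM in the knockouts (log2 fold change 1.78, SE 0.59, edgeR adjusted p = 0.688). Itgae, the integrin chain that holds these lymphocytes to epithelial E-cadherin, differed by 0.87 (SE 0.60, adjusted p = 0.809) and the T cell receptor chain gene Cd3g by -0.79 (SE 0.55, adjusted p = 0.813), both with overlapping groups.

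Epithelial genes that feed or display ligands to these lymphocytes varied gene by gene. Of 14 tested, 9 had higher and 5 lower estimates (median 0.30), 0 passed edgeR's test, and 3 had an unadjusted p under 0.05. Cd1d1 presents lipids to natural killer T cells. For Cd1d1, wild type libraries gave 6.98, 3.92 and 8.73 CPM, in the order of their numbers, and knockout libraries 21.5, 15.2 and 13.5 CPM (log2 fold change 1.36, SE 0.36, edgeR adjusted p = 0.684). Tnfrsf14 encodes the receptor HVEM. The wild type mice had 12.5, 10.1 and 12.4 CPM of Tnfrsf14 in libraries 1, 2 and 3, and the knockouts 23.2, 33.9 and 16.7 CPM (log2 fold change 1.07, SE 0.29, edgeR adjusted p = 0.684). The groups did not overlap in either gene, with the knockouts higher, as in 8.73% of all tested genes. Of the 14 tested genes of the list, 3 lay wholly above in CPM, Ocln being the other. Wholly below in CPM lay 1, Ulbp1, as did 4.27% of all tested genes, with 7.01 CPM in wild type library 3 against 6.97 CPM in knockout library 3. In TPM the groups overlapped for both Ocln and Ulbp1. The alarmin gene Il33 differed by -2.01 (SE 0.84, adjusted p = 0.727) with overlapping groups, and by -1.02 without wild type library 2. Il15, a growth factor of intraepithelial lymphocytes, ranged from 1.98 to 4.86 CPM in wild type mice and from 2.48 to 3.96 CPM in knockouts.

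Of 14 tested transcription factors of enterocytes, 10 had higher and 4 lower estimates (median 0.23), and 0 passed edgeR's test. Hnf4g encodes a nuclear receptor that with Hnf4a maintains enterocyte identity. Hnf4g measured 12.5, 7.92 and 11.6 CPM in wild type libraries 1, 2 and 3, against 30.1, 33.9 and 23.7 CPM in the knockouts (log2 fold change 1.45, SE 0.25, edgeR adjusted p = 0.684). Creb3l3 encodes a regulator of lipid genes. For Creb3l3, wild type libraries gave 16.8, 8.79 and 6.65 CPM, in the order of their numbers, and knockout libraries 2.74, 0.979 and 2.40 CPM (log2 fold change -2.39, SE 0.54, edgeR adjusted p = 0.684). Gata6 differed by 0.33 (SE 0.13, adjusted p = 0.713). The groups did not overlap in these 3 genes, as in 13.0% of all tested genes in either direction, and DESeq2 called Hnf4g and Creb3l3. Over the 6 libraries Hnf4g had r of 0.94, 0.88, 0.86 and 0.73 with Btnl4, Btnl6, Btnl1 and Btnl2, and of 0.96 with Btn1a1, a description that the shared genotype grouping and tissue makeup enter.

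The B7 family, to which butyrophilins are related, showed no common direction: of 8 tested genes 4 had higher and 4 lower estimates (median 0.01), and 0 passed edgeR's test. Cd274 encodes the inhibitory ligand PD-L1. The wild type mice had 11.3, 12.2 and 14.5 CPM of Cd274 in libraries 1, 2 and 3, and the knockouts 40.4, 39.1 and 19.5 CPM (log2 fold change 1.38, SE 0.31, edgeR adjusted p = 0.684), and DESeq2 called it. The costimulatory ligand gene Cd80 and Vtcn1, an inhibitory member, differed by -0.58 (SE 0.47, adjusted p = 0.832) and -0.57 (SE 0.75, adjusted p = 0.878).

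**Figure D4:**
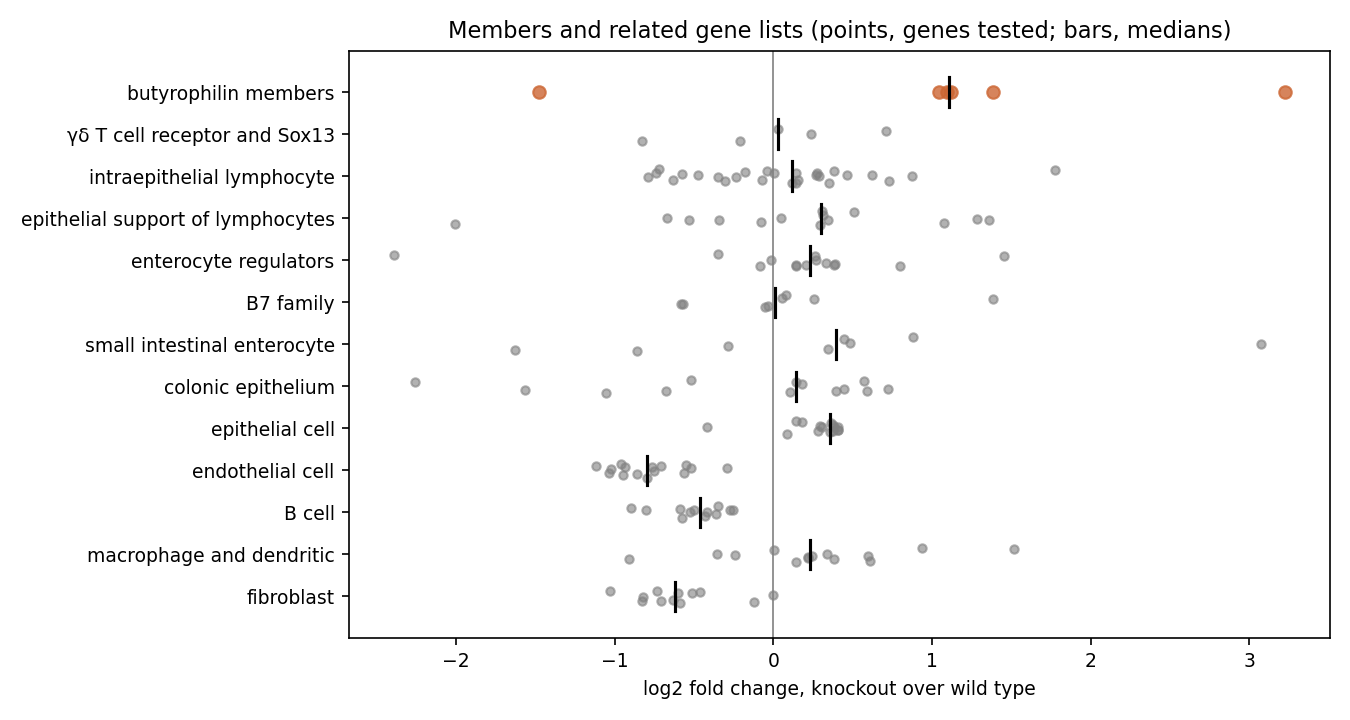
log2 fold change (x axis) of each tested gene in the member set and in 12 related lists (y axis), with black bars at the medians. The members' median is 1.11, and those of the lists plotted run from -0.80 for endothelial cells to 0.40 for small intestinal enterocyte genes; the pseudogene pair of the family (median 0.97) and the 3 tested milk genes (0.12) are not plotted.

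Lists of cell types and gut regions gave the tissue context, and 0 of their genes passed edgeR's test. Of 13 tested colonic markers, 8 had higher and 5 lower estimates (median 0.14), with Cyp2c55, a colonic cytochrome, at -2.26 (SE 0.56, edgeR adjusted p = 0.684) and carbonic anhydrase Car1 at -0.67 (SE 0.40, adjusted p = 0.783). Of 8 tested small intestinal genes, 5 were higher and 3 lower (median 0.40), among them Apob at 3.08 (SE 0.51) and Enpep at -1.63 (SE 0.37). Slc5a1, which takes up glucose, was at 0.88 (SE 0.29). All 12 B cell genes (median -0.46) and all 12 fibroblast genes (median -0.62) had lower estimates in knockout gut, and 11 of 14 macrophage and dendritic cell genes had higher ones (median 0.23). Epithelial estimates among the smallest p were Krt18 at -0.42 (SE 0.26), Epcam at 0.38 (SE 0.31) and Vil1 at 0.41 (SE 0.34). In other cell types, Emcn was at -1.12 (SE 0.55), Egfl7 at -0.76 (SE 0.38) and Kdr at -0.94 (SE 0.62) for endothelium, and Cd79a at -0.80 (SE 0.56) and Fcer2a at -0.90 (SE 0.69) for B cells. Itgax was at 0.93 (SE 0.43), Xcr1 at 1.51 (SE 0.70) and Clec9a at 0.60 (SE 0.44) for myeloid cells, and Sparc at -1.03 (SE 0.73), Thy1 at -0.63 (SE 0.56) and Dcn at -0.82 (SE 0.74) for fibroblasts. Relative to the endothelial markers, the differences were 1.86 for Btnl4, 1.89 for Btnl6, 2.55 for Btnl1, 1.86 for Btnl2 and 3.93 for Btn1a1. All 15 of these markers had lower estimates in knockout gut (median log2 fold change -0.80), so this scale raises the difference of any gene. The groups overlapped for each of these members but Btn1a1, and the share of all tested genes with groups apart on this scale was not computed. The part of the B cell, fibroblast and myeloid genes in the members' values was not tested. Of 41 genes the naming rule gives beside the members, 25 had an estimate that moved over 1.5-fold or changed sign when 1 library was left out.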

How the data were processed

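RNA was sequenced from intestine of 3 wild type and 3 FcεRIα knockout mice, grouped and numbered by the sample titles. Per the labels' protocols, TRIzol and DNase I gave the RNA and a TruSeq kit the libraries. The submitters' processing notes list TopHat2 2.0.0 and mm10. How reads were counted, with which annotation and strand setting, is not given in the sources used here. The deposited tables hold estimated counts per gene, 12.4% to 14.8% of them fractional, which were rounded to whole numbers here, and a gene length of other unit (bases), used for TPM.

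edgeR 4.0.16 (quasi-likelihood, TMM, filterByExpr with a minimum count of 10, Benjamini-Hochberg threshold 0.05, R 4.3.3) tested 16732 genes and dropped 39630. Each SE was taken as the size of the log2 fold change over the root of edgeR's F. DESeq2 1.42.0, limma-voom (limma 3.58.1), other scalings and filters, leaving out single libraries and a fit with the replicate block were alternatives. The fit was tested on simulated counts. Libraries of 1 group differed beyond sampling noise (chi-square per degree of freedom 33.8 to 247). Depth was 19031833 to 23092382 counts.

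The members and lists were chosen with earlier results of these data known. Named genes were all members, measured relatives, up to 3 genes of smallest p per list, the nearest protein-coding neighbours and the 5 genes most correlated with the most abundant member. The genes most like Btn1a1, the further class II genes, Il15, Trgv7 and the genes that define a region or tissue fell outside this rule. Of the genes the rule names, 2 are not reported here. P-values measure the spread between single mice.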

Additional observations from a re-analysis of the deposited data

How the results depend on the processing

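The number of genes called was 0 by edgeR and stayed 0 under the other scaling factors, the stricter filter, unrounded counts and each left-out library (0 to 0). It was 3 with no filter on low counts, 84 by DESeq2 (among them Hnf4g, Creb3l3, Cd274, Apob, Enpep and Cyp2c55) and 2 by limma-voom, and the cause was not tested. The members' median log2 fold change, 1.11, ran from 0.88 to 1.78 when 1 library was left out, the highest without wild type library 1, and was 0.82 relative to the epithelial markers. None of the 6 members tested changed sign under the 15 alternatives run or on the epithelial scale; Btnl9 was not in the stricter filter. Of the 41 other genes of the naming rule, Mfge8 ranged from -0.42 to 0.11 when 1 library was left out, turning to 0.11 without wild type library 3 and 0.04 without knockout library 3, and Plin2 ranged from -0.0739 to 0.46, turning to -0.01, -0.06 and -0.0739 without wild type library 2, wild type library 3 and knockout library 2. The medians of 6 of the 14 lists changed sign under at least 1 alternative: γδ T cell receptor (-0.26 to 0.29), intraepithelial lymphocyte (-0.37 to 0.62), B7 (-0.32 to 0.29), colonic epithelium (-0.29 to 1.16), macrophage and dendritic (-0.43 to 0.75) and milk genes (-0.07 to 0.46). The replicate block gave 0 calls and a member median of 1.19. The main fit did not pair the mice by number. Deviations of same-numbered libraries from their group means had r of 0.42, -0.13 and 0.0055, and libraries 2 and 3 correlated best with another number. With 3 libraries in each group, these correlations cannot decide whether libraries of the same number share a batch. Depth limits Btn2a2, Trgv7 and the Skint genes, at 0 to 3 counts.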
